A study of Homo sapiens with 6 samples.

Results

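Lactate and pyruvate transport was described through 8 genes, chosen by name: the 4 proton-coupled monocarboxylate transporters SLC16A1 (MCT1), SLC16A7 (MCT2), SLC16A8 (MCT3) and SLC16A3 (MCT4), their chaperones BSG (basigin) and EMB (embigin), and the mitochondrial pyruvate carrier subunits MPC1 and MPC2. The 8 genes were found among 57123 genes with exon counts, and all 8 were among the 25125 genes with enough counts to be tested. RNA was taken from HEK293 cells, an established line of transformed human embryonic kidney cells, of 2 genotypes: wild type (WT, 3 libraries) and MUL1(−/−) (3 libraries). MUL1 is an E3 ubiquitin ligase of the outer mitochondrial membrane, and the MUL1(−/−) line had been made earlier by CRISPR-Cas9 editing. Both genotypes were grown without a treatment in the same supplemented DMEM medium, which holds high glucose and sodium pyruvate. Whether the MUL1(−/−) libraries come from 1 clone is not given in the sources used here. The methods speak in general of independent experiments for quantitative data, but do not say whether the libraries of a genotype came from separate cultures. The p-values below therefore measure the spread between these libraries, which may be technical.

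Monocarboxylate transporters move lactate or pyruvate together with a proton across the plasma membrane, in the direction set by the gradients. MCT1 to MCT4 reach the cell surface only in a complex with a small immunoglobulin-like membrane protein: basigin for MCT1, MCT3 and MCT4, and embigin for MCT2. Inside the cell, MPC1 and MPC2 form the heterodimer that carries pyruvate through the inner mitochondrial membrane to pyruvate dehydrogenase and pyruvate carboxylase. MCT4 is known as the lactate exporter of glycolytic cells, and its gene is a target of hypoxia-inducible factor.

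The deposited values are counts per exon bin, a stretch of exon between annotated boundaries, and a gene's count is the sum over its bins. These sums came to 127015142 to 142803296 per WT library and 121917971 to 122441959 per MUL1(−/−) library, and are larger than the number of reads because 1 read can fall into more than 1 bin. Levels are given as CPM (counts per 1000000 counts of the library) after TMM scaling. A count of 3, taken as the lower limit of detection, equals 0.0210 to 0.0246 CPM before that scaling and 0.0212 to 0.0242 CPM after it. Replicate 3 of each genotype stood apart from the others: pairs with it differed by 7.82 to 9.51 times the sampling noise (chi-square per degree of freedom), against 2.75 for the other WT pair and 4.77 for the other MUL1(−/−) pair. MUL1 itself (chromosome 1, 20499448 to 20508161, GRCh38) was measured at 15.4, 15.2 and 19.0 CPM in the WT libraries and at 18.7, 16.7 and 19.2 CPM in the libraries labelled MUL1(−/−). The groups overlapped (log2 fold change 0.14 ± 0.10 SE, edgeR adjusted p = 0.321), so MUL1 RNA does not check the labels. All 5 HEK293 markers (VIM, NEFL, NEFM, PAX2 and LHX1) had counts in every library. Their summed level was 859 to 1092 CPM in WT and 682 to 830 CPM in MUL1(−/−), with NEFM (log2 fold change 1.06) past both thresholds upward and PAX2 (-1.80) downward. VIM (-0.34, edgeR adjusted p = 0.00570) and LHX1 (-0.55, adjusted p = 0.00846) also fell, and NEFL (-0.30, adjusted p = 0.0756) did not pass the test. Of 7 markers of other cells, 4 rose past both thresholds, with log2 fold changes of 1.94 for PTPRC, 1.30 for DCN, 3.09 for LUM and 2.06 for PECAM1. PTPRC was at 2.59 without WT replicate 1 and at 1.66 without WT replicate 2, and PECAM1 at 1.57 and 2.78. Both had few counts: PTPRC 21, 8 and 8 in WT and 37, 52 and 48 in MUL1(−/−). PECAM1 had 1, 13 and 7 counts in WT and 35, 22 and 27 in MUL1(−/−). COL1A1, a fibroblast collagen gene and the most counted of the 7, fell by 0.39 on the log2 scale (adjusted p = 0.00832), from 21.9 ± 2.53 to 16.8 ± 1.91 CPM (SD, n = 3 each). The summed level of the 7 was 23.9 to 28.4 CPM in WT and 28.7 to 34.9 CPM in MUL1(−/−), and 3.71 to 4.16 against 12.7 to 18.3 CPM without COL1A1. None of the 7 was at 0 in any library, and the part of these markers in the results below was not tested.

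In MUL1(−/−) libraries, SLC16A7 (MCT2) rose 2.84-fold and SLC16A8 (MCT3) rose 1.55-fold, while SLC16A1 (MCT1) rose 1.16-fold, MPC2 rose 1.14-fold and BSG, the chaperone of most of these transporters, fell to 0.847 of its WT level. SLC16A3 (MCT4), EMB and MPC1 did not pass the test. SLC16A7 was the 1 member past both thresholds of the study (a log2 fold change beyond 1 in either direction, with an adjusted p under 0.05), and it rose. Over all tested genes, 4.23% rose past both thresholds, 3.87% fell past them and 8.11% did either. By the adjusted p alone, 4 members rose and 1 fell, against 18.8% of all tested genes that rose, 18.7% that fell and 37.5% in either direction. The 3 libraries of one genotype lay wholly above or below the 3 of the other for 6 of the 8 members, 5 upward and 1 downward, against 48.5% of all tested genes. The median log2 fold change of the 8 members was 0.20, and that of all tested genes was -0.0098. In bulk RNA, fewer cells that express a gene and less RNA per cell cannot be told apart.

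SLC16A7 (ENSG00000118596, chromosome 12, 59596067 to 59789855, plus strand) encodes MCT2, the transporter of the family with the highest affinity for pyruvate and lactate, usually linked to uptake. Its level was 1.46, 1.54 and 1.32 CPM in the WT libraries and 3.83, 5.10 and 3.36 CPM in the MUL1(−/−) libraries. Each MUL1(−/−) library was above each WT library. Over the 3 libraries of a genotype, the mean (± SD) went from 1.44 ± 0.11 CPM up to 4.10 ± 0.90 CPM, which gave a log2 fold change of 1.51 with a standard error (SE) of 0.16 (edgeR, adjusted p = 3.95e-06). It passed both thresholds in all 15 other fits that were run, with log2 fold changes of 1.33 to 1.63. The 20 tested genes nearest to it on the chromosome had a median log2 fold change of 0.033. The tested gene on either side, LRIG3 and TAFA2, differed by 0.012 (adjusted p = 0.927) and 0.078 (adjusted p = 0.856) on the log2 scale.

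The counts of SLC16A7 came mostly from its last exon bin, 59780214 to 59789855, a stretch of 9642 bases of non-coding exon at the end of transcript SLC16A7-201. That bin held 111, 116 and 93 counts in WT and 286, 382 and 247 counts in MUL1(−/−). Its share of the gene's counts was 56.3% ± 3.24 in WT and 59.4% ± 0.454 in MUL1(−/−) (SD, n = 3 each). Bins with coding sequence held 24.0% ± 3.64 and 24.2% ± 2.23 of the counts. None of the 8 bins of this gene that could be tested changed its share of the gene (edgeR diffSpliceDGE, smallest adjusted p = 1.00). RefSeq gives 2 start sites for SLC16A7. The bins within 300 bases after the upstream start held 2 to 6 counts per WT library and 9 to 12 counts per MUL1(−/−) library in the most counted of them, and those after the downstream start held 0 counts in all 6 libraries. The annotated exon 1 of SLC16A7-201, the transcript named for the last bin, lies at that downstream start. The 250 bases before each start are shown because only the upstream start was followed by counts within 300 bases (RefSeq, GRCh38.p14, plus strand, chr12:59595779-59596028 and chr12:59689120-59689369). Their share of G and C is 60.4% before the start with counts and 35.2% before the other.
SLC16A7 upstream start: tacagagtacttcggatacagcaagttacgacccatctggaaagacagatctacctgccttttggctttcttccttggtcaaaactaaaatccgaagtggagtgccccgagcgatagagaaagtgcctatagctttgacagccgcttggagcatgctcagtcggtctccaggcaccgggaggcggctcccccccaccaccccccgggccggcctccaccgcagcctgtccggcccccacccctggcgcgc
SLC16A7 downstream start: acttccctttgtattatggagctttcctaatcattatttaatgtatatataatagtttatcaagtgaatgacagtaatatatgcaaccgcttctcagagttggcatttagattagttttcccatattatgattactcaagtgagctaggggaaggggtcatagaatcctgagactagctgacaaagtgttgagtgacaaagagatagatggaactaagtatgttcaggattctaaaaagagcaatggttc

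By Euclidean distance over the 6 libraries, on log2(CPM + 0.05) less the WT mean, the 3 protein-coding genes closest to SLC16A7 were GALNT13 (distance 0.16), ARSD (0.22) and VAV1 (0.24). GALNT13 encodes an enzyme that starts O-linked glycans, ARSD a sulfatase-like protein and VAV1 a guanine nucleotide exchange factor of blood cells. GALNT13 was at 3.85, 4.28 and 3.87 CPM in WT and at 10.9, 13.9 and 9.90 CPM in MUL1(−/−), and the means of VAV1 were 2.99 ± 0.46 and 8.31 ± 1.14 CPM (SD, n = 3). In all 4 genes the MUL1(−/−) library numbered 2 was the highest, which the choice by profile over these same libraries favours. ARSD was near the limit of detection in WT, at 0.0238 to 0.0495 CPM. The 0.05 CPM added before the logarithm exceeds its WT mean of 0.0376 CPM, which lowers its difference on that scale. In edgeR the log2 fold change of ARSD was 2.40, against 1.51 for SLC16A7, 1.53 for GALNT13 and 1.48 for VAV1.

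SLC16A8 (ENSG00000100156, chromosome 22, 38078134 to 38084093, minus strand) encodes MCT3, a transporter known from the retinal pigment epithelium, where it carries lactate out of the retina. It was measured at 3.05, 3.49 and 3.72 CPM in WT and at 5.13, 4.78 and 5.96 CPM in MUL1(−/−). All MUL1(−/−) libraries were above all WT libraries. The log2 fold change was 0.63 ± 0.13 (SE, adjusted p = 0.00103), under the study's threshold of 1, and it passed the adjusted p in all 15 other fits (0.53 to 0.85). Coding bins held 76.7% ± 4.28 of its counts in WT and 75.0% ± 2.33 in MUL1(−/−), no bin was shared with another gene, and none of its 8 bins changed its share (smallest adjusted p = 0.857). Of its neighbours, ENSG00000233739 had a log2 fold change of -0.060 (adjusted p = 0.758) and BAIAP2L2 one of 0.36 (adjusted p = 0.0236). The median of the nearest 20 was -0.038.

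SLC16A1 (ENSG00000155380, chromosome 1, 112911847 to 112957013, minus strand) encodes MCT1, the transporter of lactate and pyruvate found in most tissues. Its level was 172, 163 and 162 CPM in WT and 180, 192 and 204 CPM in MUL1(−/−). The groups did not overlap, and the lowest MUL1(−/−) library was close to the highest WT library. The means were 165.8 ± 5.49 and 192 ± 12.4 CPM (SD, n = 3), and the gene rose by 0.21 ± 0.068 on the log2 scale (SE, adjusted p = 0.0243). Of the 15 other fits, 10 kept the call. It was lost on the most counted bin alone (0.18, adjusted p = 0.0803), and without WT replicate 2 (adjusted p = 0.0974), WT replicate 3 (0.0563), MUL1(−/−) replicate 2 (0.0511) or MUL1(−/−) replicate 3 (0.0814). The neighbours LINC01357 (0.043, adjusted p = 0.850) and AKR7A2P1 (0.080, adjusted p = 0.821) did not pass the test.

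SLC16A3 (ENSG00000141526, chromosome 17, 82228397 to 82261129, plus strand) encodes MCT4 and had few counts in both genotypes, 106 to 196 per library. Its level was 0.834, 1.39 and 1.32 CPM in WT and 1.42, 1.33 and 1.43 CPM in MUL1(−/−). The groups overlapped, and the log2 fold change of 0.24 ± 0.19 (SE) did not pass the test (adjusted p = 0.345). Of its 52 bins, 12 were at 0 in every library and 3 had enough counts to be tested for usage. Some bins are also covered by an exon of CSNK1D, a kinase gene on the other strand, or, in 1 bin, of the microRNA gene MIR6787. Such bins held 22.5% ± 9.54 of the counts in WT and 25.8% ± 2.89 in MUL1(−/−) (SD, n = 3 each). CSNK1D was measured at 171 ± 5.28 and 187 ± 37.3 CPM in bins that no other gene covers. On the most counted bin, 82260899 to 82261129, the log2 fold change of SLC16A3 was -0.085 (adjusted p = 0.840), the opposite direction to the sum over bins. That bin belongs to transcript SLC16A3-216 only and held a further 19.3% ± 1.77 of the counts in WT and 15.1% ± 2.43 in MUL1(−/−). It overlaps no exon of CSNK1D but lies within that gene (82239023 to 82273731). Whether its reads come from SLC16A3 or from CSNK1D was not tested.

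By length, the members fell into an order that the genotypes shared except at its end. On the scale of CPM per kilobase of exon bins, the WT level was 243 ± 13.6 for BSG, 31.2 ± 1.03 for SLC16A1, 29.6 ± 1.12 for MPC1, 25.96 ± 0.56 for MPC2, 9.41 ± 0.37 for EMB and 1.55 ± 0.16 for SLC16A8 (SD, n = 3 each). SLC16A3 (0.131 ± 0.033) and SLC16A7 (0.105 ± 0.0083) came last and overlapped over the WT libraries. In MUL1(−/−), SLC16A7 stood at 0.300 ± 0.066 and SLC16A3 at 0.155 ± 0.0064 CPM per kilobase, with no overlap. SLC16A1 and MPC1 were next to each other in WT (30.5 to 32.4 against 28.3 to 30.5) and overlapped in MUL1(−/−) (33.8 to 38.5 against 30.6 to 37.2). However, each has 17 bins, over 1546 bases in MPC1 and 5312 in SLC16A1, and 1 read can count in several bins. The part of this in the closeness of SLC16A1 and MPC1 was not tested. The transporter with the largest fold change, SLC16A7, was thus the least abundant one in WT on this scale, together with SLC16A3.

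On the longest bin of each gene, which counts a read once, BSG (174 CPM per kilobase in WT) and SLC16A1 (27.2) kept the highest places and SLC16A3 (0.0116) and SLC16A7 (0.0841) the lowest. EMB (8.16) then stood above MPC1 (1.94) and MPC2 (1.62). Except for BSG and SLC16A1, the longest bin of each gene belongs to 1 transcript only, which for SLC16A3 and MPC1 is a non-coding one. That bin of SLC16A3 had 0, 6 and 7 counts in WT, and its level there stands against 0.131 CPM per kilobase over all bins.

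BSG (ENSG00000172270, chromosome 19, 571277 to 583493, plus strand) encodes basigin, which escorts MCT1, MCT3 and MCT4 to the plasma membrane. Its level was 986, 923 and 883 CPM in WT and 782, 754 and 831 CPM in MUL1(−/−). Each MUL1(−/−) library was below each WT library. The means were 930.8 ± 52.1 and 789 ± 38.9 CPM (SD, n = 3), and the log2 fold change was -0.24 ± 0.067 (SE, adjusted p = 0.0106). The call was lost without MUL1(−/−) replicate 1 (-0.22, adjusted p = 0.0564) or MUL1(−/−) replicate 2 (-0.19, adjusted p = 0.0680), and held in the other 13 fits. The 20 nearest tested genes, between 405438 and 764318, had a median log2 fold change of -0.28, and 7 of them fell by the adjusted p. Less that median, the value for BSG was 0.041. The neighbour HCN2 fell by 0.28 on the log2 scale (adjusted p = 0.0465), and the antisense gene BSG-AS1 on the other side by 3.08 over all its bins (adjusted p = 2.13e-08).

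EMB (ENSG00000170571, chromosome 5, 50396192 to 50443248, minus strand) encodes embigin, the partner that MCT2 prefers. It was measured at 48.8, 47.9 and 51.6 CPM in WT and at 44.8, 52.1 and 58.3 CPM in MUL1(−/−). The MUL1(−/−) libraries lay on both sides of the WT libraries. The log2 fold change was 0.064 ± 0.089 (SE, adjusted p = 0.615), and it was -0.030 without MUL1(−/−) replicate 3. The 20 nearest tested genes had a median of -0.42, with 8 that fell and 4 that rose by the adjusted p. Less that median, the value for EMB was 0.49.

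The mitochondrial carrier subunits moved little. MPC2 (ENSG00000143158, chromosome 1, 167916729 to 167937040, minus strand) was at 67.3, 64.6 and 66.8 CPM in WT and at 75.2, 73.4 and 77.5 CPM in MUL1(−/−), without overlap. It rose by 0.19 ± 0.066 on the log2 scale (SE, adjusted p = 0.0368). However, bins 167935733 to 167937040 are also covered by DCAF6 on the other strand, and they held 47.8% ± 1.84 of its counts in WT and 50.2% ± 1.42 in MUL1(−/−) (SD, n = 3 each). In the bins that no other gene covers, the value for MPC2 was 0.12 (adjusted p = 0.216), and its call was also lost without WT replicates 1, 2 or 3 or MUL1(−/−) replicates 1 or 3 (adjusted p 0.0509 to 0.155). DCAF6 did not pass the test (0.14, adjusted p = 0.182), nor did ADCY10 on the other side (0.40, adjusted p = 0.171).

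MPC1 (ENSG00000060762, chromosome 6, 166364919 to 166383013, minus strand) was at 46.2, 43.8 and 47.2 CPM in WT and at 47.3, 50.6 and 57.5 CPM in MUL1(−/−). The lowest MUL1(−/−) library was level with the highest WT library. The log2 fold change was 0.18 ± 0.081 (SE, adjusted p = 0.0971). It passed the adjusted p with library totals in place of TMM (0.25, adjusted p = 0.0210), on the most counted bin (0.29, adjusted p = 0.0181) and without MUL1(−/−) replicate 1 (0.25, adjusted p = 0.0406). The median of its 20 nearest genes was -0.17.

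Exon usage was compared next, as the share of a gene's counts in each bin. Of 313115 tested bins, 1.47% changed their share (edgeR diffSpliceDGE, adjusted p under 0.05), and 2 bins of members did, both at an annotated gene start and both lower in MUL1(−/−). In BSG, bin 571310 to 571579 is an alternative exon 1 of the transcripts BSG-202 and BSG-204, upstream of the main start. It held 127, 140 and 97 counts in WT and 10, 7 and 11 counts in MUL1(−/−), with a log2 difference in usage of -3.37 (adjusted p = 1.78e-32). This bin carried 0.0986% ± 0.0103 of BSG's counts in WT and 0.0094% ± 0.0017 in MUL1(−/−) (SD, n = 3 each), so it adds next to nothing to the gene's level. It overlaps BSG-AS1 (ENSG00000267751, 567210 to 572228, minus strand). In bins that BSG does not cover, BSG-AS1 had 237, 251 and 191 counts in WT and 38, 28 and 18 in MUL1(−/−). Bins with the same bases on opposite strands had equal counts (18 pairs, in which the smaller count over the larger had a median of 1), so reads of BSG and of BSG-AS1 in this bin cannot be told apart.

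In SLC16A1, bin 112956839 to 112957013 is exon 1 of 1 of its 7 transcripts, SLC16A1-202, and holds no coding sequence. It had 276, 341 and 287 counts in WT and 212, 182 and 170 counts in MUL1(−/−), a log2 difference in usage of -0.82 (adjusted p = 1.79e-08), while the gene as a whole moved the other way. Its share of the gene's counts was 1.38% ± 0.110 in WT and 0.787% ± 0.133 in MUL1(−/−) (SD, n = 3 each). This bin overlaps the antisense gene SLC16A1-AS1 (ENSG00000226419, 112956415 to 113047055, plus strand). Over all its bins, those shared with SLC16A1 included, SLC16A1-AS1 fell by 0.52 ± 0.088 on the log2 scale (SE, adjusted p = 2.76e-04). In bins that no other gene covers, its WT level was 27.7 ± 1.26 CPM and its MUL1(−/−) level 19.99 ± 1.91 CPM (SD, n = 3). Here too, sense and antisense reads cannot be told apart. Both bins were called in each of the 9 other fits of exon usage.

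**Figure D1:**
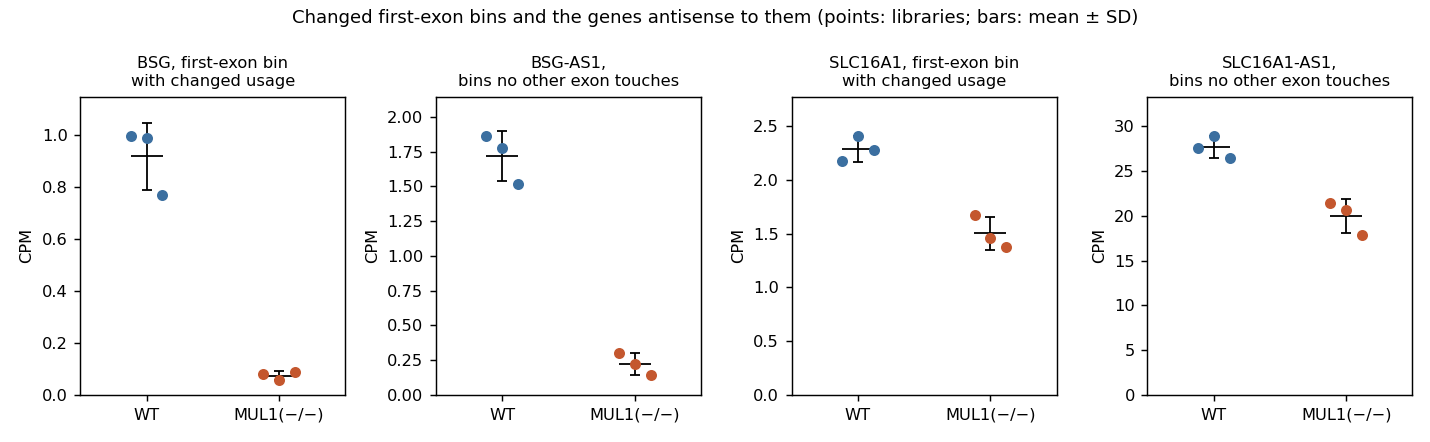
Level in CPM (vertical axes, each from 0) of the exon 1 bins of BSG and SLC16A1 with changed usage, and of the antisense genes BSG-AS1 and SLC16A1-AS1 in bins that no other gene covers. Points are libraries, and bars give mean ± SD. In all 4 panels the 3 MUL1(−/−) points lie below the 3 WT points.

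The 250 bases before both BSG starts are given because the bins after them differed (RefSeq, GRCh38.p14, plus strand, chr19:571033-571282 and chr19:572346-572595). The upstream start precedes the bin with changed usage, where reads of BSG and of BSG-AS1 cannot be told apart. The main start precedes bins with up to 7728 counts in WT and 6332 in MUL1(−/−). The window of SLC16A3 before the start at 82229042 is given because it holds a motif searched for (plus strand, chr17:82228792-82229041). In the most counted bin that begins within 300 bases after that start, 82229107 to 82231926, the libraries had 0 to 7 counts. That bin is 2820 bases long and so reaches far past those 300. Each bin from 82229032 to 82229106, at the start itself, had 0 counts in WT and at most 2 in a MUL1(−/−) library. The motif marked is ACGTG, a core of hypoxia-inducible factor sites and of many E-boxes, searched on both strands and shown in capitals. GCGTG, counted below, was searched in the same way and left in lower case. In BSG the matches on the 2 strands overlap as CACGTG.
BSG upstream start: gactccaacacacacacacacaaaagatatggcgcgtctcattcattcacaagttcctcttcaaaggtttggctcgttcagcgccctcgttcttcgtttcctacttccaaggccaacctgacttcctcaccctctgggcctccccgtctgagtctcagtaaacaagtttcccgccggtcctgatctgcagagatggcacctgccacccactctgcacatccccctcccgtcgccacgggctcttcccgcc
BSG main start: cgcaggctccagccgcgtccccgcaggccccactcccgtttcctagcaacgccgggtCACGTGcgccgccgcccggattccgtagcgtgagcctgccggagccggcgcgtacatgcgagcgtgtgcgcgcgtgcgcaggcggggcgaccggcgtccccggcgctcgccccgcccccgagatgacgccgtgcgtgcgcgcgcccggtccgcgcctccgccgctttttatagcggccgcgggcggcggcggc
SLC16A3 start: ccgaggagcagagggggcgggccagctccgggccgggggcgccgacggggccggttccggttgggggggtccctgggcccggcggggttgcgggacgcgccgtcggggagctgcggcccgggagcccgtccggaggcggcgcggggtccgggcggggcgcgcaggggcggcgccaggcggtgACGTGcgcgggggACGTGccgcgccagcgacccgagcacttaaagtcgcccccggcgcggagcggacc
RefSeq windows, from 250 bases before to 50 bases after a start, were found for 6 of the 8 members (14 windows). Of these 14, 2 hold ACGTG, those of the main BSG start and of the SLC16A3 start shown, and 6 hold GCGTG. Of 35116 such windows of all genes, 21.4% hold ACGTG and 36.5% hold GCGTG. The 2 members with ACGTG were BSG, the member with the highest level per length, and SLC16A3, 1 of the 2 lowest. No window of SLC16A7 or SLC16A8 holds either motif. A match describes these letters and is not evidence of binding.

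Genes of the same pathway were then counted from lists compiled by hand. Of the 10 other SLC16 genes, 3 rose and 4 fell by the adjusted p. SLC16A5 (MCT6), with 464, 498 and 346 counts in WT and 29, 8 and 29 counts in MUL1(−/−), fell past both thresholds by 4.23 on the log2 scale (adjusted p = 2.65e-08). SLC16A12, a creatine transporter, fell by 1.33 (adjusted p = 0.00771), from 32, 40 and 37 counts to 8, 21 and 12, but not on its most counted bin (-0.83, adjusted p = 0.109). SLC16A14 rose by 0.55 (adjusted p = 1.37e-04), SLC16A13 by 0.70 (adjusted p = 0.00434) and SLC16A10, an aromatic amino acid transporter, by 0.29 (adjusted p = 0.00671), all under the study's threshold. For SLC16A13 the groups overlapped, at 3.06, 2.93 and 3.755 CPM in WT and 6.26, 5.78 and 3.744 CPM in MUL1(−/−). Within the family, SLC16A7 was the only gene of 14 that rose past both thresholds.

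Among other carriers, the chaperone NPTN (neuroplastin, a relative of basigin that also binds MCT2) rose by 0.27 on the log2 scale (adjusted p = 0.0164), from 108, 105 and 121 CPM to 124, 129 and 148 CPM. SLC5A8, a sodium-coupled monocarboxylate transporter, rose by 2.27 (adjusted p = 0.00105), but on 2, 4 and 7 counts in WT and 21, 20 and 20 counts in MUL1(−/−). SLC5A12 did not pass the test (-0.68, adjusted p = 0.0810). MPC1L, a testis form of MPC1, and the lactate receptor HCAR1 had too few counts to be tested.

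The enzymes on either side of transport moved little where they were abundant. The lactate dehydrogenase subunits LDHA (1314 ± 34.7 CPM in WT, log2 fold change -0.11, adjusted p = 0.230) and LDHB (1725 ± 78.6 CPM, -0.13, adjusted p = 0.105) did not pass the test. LDHC, the testis form, fell by 2.20 (adjusted p = 1.41e-07), from 525, 584 and 670 counts to 140, 95 and 134. LDHD, which oxidises D-lactate, rose by 0.60 (adjusted p = 0.0152). The 13 tested genes for the use of pyruvate in the matrix had log2 fold changes of -0.26 to 0.32. By the adjusted p, PDHA1 fell by 0.21 (adjusted p = 0.0155) and DLD by 0.26 (adjusted p = 0.00902), both parts of the pyruvate dehydrogenase complex, while PDPR rose by 0.32 (adjusted p = 0.00397). The other 10, among them pyruvate carboxylase PC (0.047, adjusted p = 0.677) and the 4 pyruvate dehydrogenase kinases, did not.

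Genes that handle the proton or bicarbonate at the membrane went both ways. SLC4A10, a sodium-coupled bicarbonate transporter, rose by 3.03 on the log2 scale (adjusted p = 5.74e-09), from 86, 68 and 61 counts to 478, 603 and 596. CA9, a hypoxia-inducible carbonic anhydrase, rose by 1.23 (adjusted p = 0.0418) on 7, 4 and 11 counts in WT and 13, 16 and 21 in MUL1(−/−). Its call was lost with DESeq2 (adjusted p = 0.121), without WT replicate 1 (0.109) or 2 (0.192) and without MUL1(−/−) replicate 1 (0.0523), 2 (0.0889) or 3 (0.147). CA4 fell by 1.85 (adjusted p = 0.00903), from 22, 21 and 15 counts to 2, 3 and 10, and lost its call without MUL1(−/−) replicate 1 (0.0564) or 2 (0.0542). Without MUL1(−/−) replicate 3 its log2 fold change was -2.83 (adjusted p = 0.00124). SLC4A2 fell by 0.30 (adjusted p = 0.0136) and SLC4A7 by 0.35 (adjusted p = 0.0280), and the other 4 of the 9 tested, among them the carbonic anhydrases CA2 (0.035, adjusted p = 0.788) and CA12 (0.020, adjusted p = 0.873), did not pass the test.

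**Figure D2:**
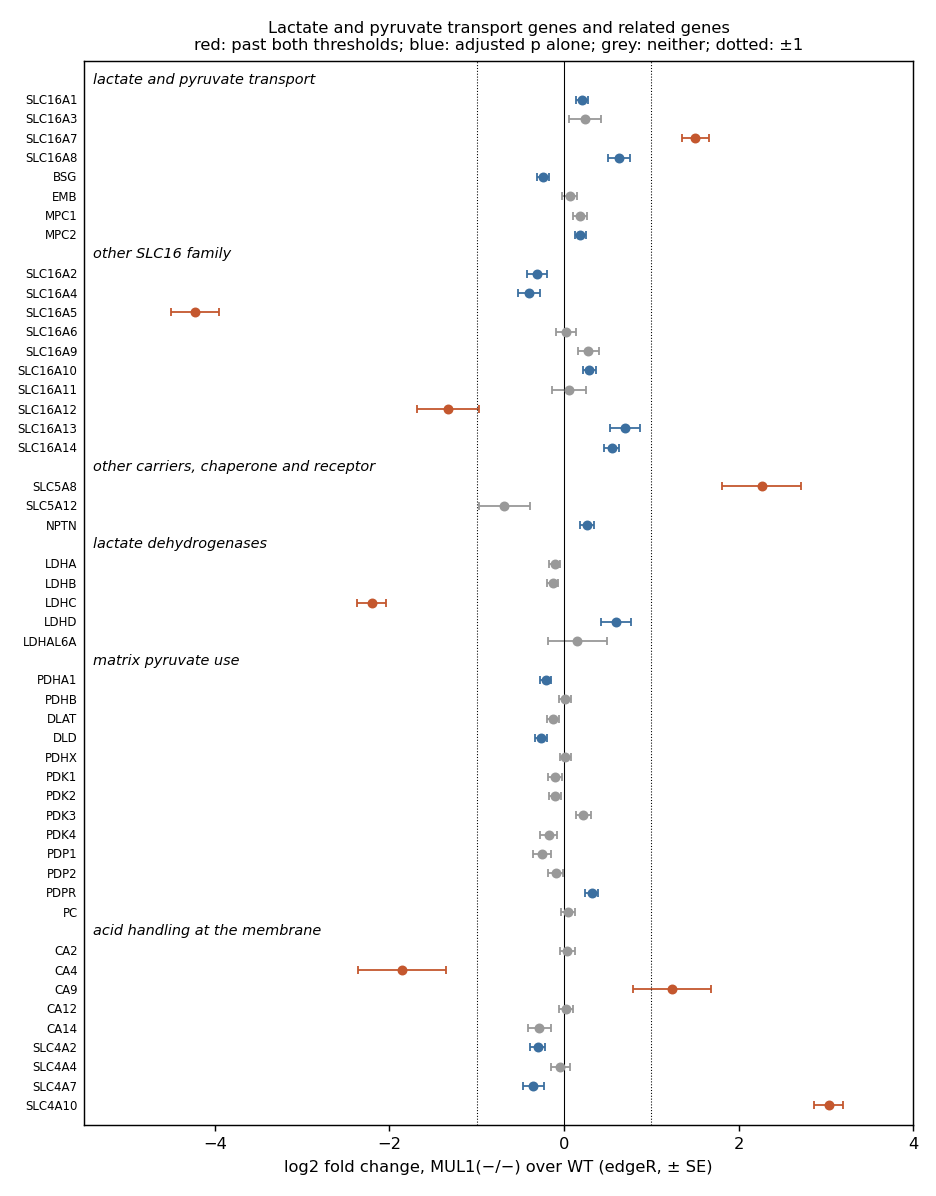
Log2 fold change of MUL1(−/−) over WT (horizontal axis, edgeR, ± SE) for the 8 members and the tested genes of 5 related lists (vertical axis). Red points passed both thresholds, blue the adjusted p alone and grey neither, and dotted lines mark the threshold of 1 in each direction. SLC16A7 is the only red point among the members, at 1.51, and SLC16A5 lies lowest at -4.23.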

How the data were processed

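RNA of 6 libraries was sequenced, with libraries made by the SMARTER mRNA-Seq kit, and the study compared WT and MUL1(−/−) cells with DESeq2. The submitters' processing notes name Trimmomatic 0.36, STAR 2.5.2b and GRCh38; the counting program is not given in the sources used here. The authors deposited raw counts per exon bin, without normalization, for 597973 bins. The plan was made for gene counts, and the counts of a gene's bins were added up. Bins of joined identifiers were given to the 1 gene with a GENCODE 29 exon there, which left out 4.37% of the counts. Deposited gene spans matched GENCODE 29 for 96.6% of identifiers.

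Gene counts were scaled by TMM (0.946 to 0.992 in WT, 1.02 to 1.03 in MUL1(−/−)), filtered with filterByExpr and tested with edgeR 4.0.16 in R 4.3.3 (quasi-likelihood, Benjamini-Hochberg over 25125 genes). Exon usage was tested with diffSpliceDGE over 313115 bins. DESeq2 1.42.0, limma 3.58.1 (voom), RLE factors, library totals, no filter, at least 1 CPM in 3 samples, the replicate number as a block, the most counted bin, unshared bins and each library left out in turn were alternatives, as was subtracting the median of the 20 neighbouring genes. The level on the longest bin was added after seeing the data. Genes named were the 8 members, MUL1, listed genes past both thresholds or needed for a count, neighbours of members past the adjusted p and the 3 closest profiles. The members and lists were chosen with earlier results of these data known. Of the lists, 1 gene is not reported here. All pairs of replicates differed by more than their sampling noise, so none was counted as 1 library deposited again. Limits of detection cover counting error only. On simulated data, 187 of 200 genes changed by a log2 fold of 2 were recovered by edgeR, with 19 false calls. That fold is larger than the change of any member, so the recovery of smaller changes was not tested. The simulated gene counts were drawn without reads that fall into several bins. Python 3.11.15, numpy 2.4.6, pandas 2.3.3 and matplotlib 3.10.9 made the tables and figures.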

Additional observations from a re-analysis of the deposited data

How the results depend on the processing

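SLC16A7 and SLC16A8 kept their direction and their side of the adjusted p in all 15 other fits, and both exon bins in all 9. The call of SLC16A1 was lost on the most counted bin (0.18, log2 fold change) and that of MPC2 in unshared bins (0.12), whereas MPC1 passed with library totals (0.25) and on the most counted bin (0.29). SLC16A3 turned to -0.085 on the most counted bin, and EMB to -0.030 without MUL1(−/−) replicate 3. Leaving out each library in turn gave 0.16 to 0.27 for SLC16A1, -0.28 to -0.19 for BSG, 0.10 to 0.25 for MPC1, 0.16 to 0.22 for MPC2 and -0.030 to 0.17 for EMB. By the adjusted p, 2 to 4 members were higher and 0 to 1 lower in those fits. They called 7363 to 9630 of all 25788 to 26038 genes tested, against 9422 of 25125 in the main fit. Less the median of 20 neighbouring genes, BSG turned to 0.041, EMB moved to 0.49 and MPC1 to 0.35. Listed genes past both thresholds were 3 higher and 4 lower, 1 and 2 with at least 1 CPM in 3 samples, and 1 higher on the most counted bin; leaving out a library gave 2 to 3 higher and 3 to 4 lower. Over all tested genes, at least 1 CPM in 3 samples left 331 higher and 446 lower past both thresholds, against 1064 and 973. Leaving out a library gave 1008 to 1277 higher and 902 to 1075 lower. The cause of these shifts was not tested, except that the stricter filter tests fewer genes (16020). The replicate number as a block changed no member's call (SLC16A7 1.49, BSG -0.24) and lost CA9 (adjusted p = 0.0519). Same-numbered libraries did not deviate together in general (r = -0.084 to 0.16 over 15791 genes, 2 of 3 pairs over 0.1), so the numbers were not taken as pairs. Depth limits genes with few counts, among them SLC16A3, SLC16A12, SLC5A8, CA4 and CA9, and MPC1L and HCAR1 had too few to be tested.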
